A study of Mus musculus with 4 samples.

Results

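The DNA motifs of the thyroid hormone receptors (Thra, Thrb), retinoic acid receptors (Rara, Rarb, Rarg), retinoid X receptors (Rxra, Rxrb, Rxrg) and the vitamin D receptor (Vdr) were followed in the accessible chromatin of regulatory T cells (Tregs). They were selected by the factor symbol in the name of each entry in the authors' table of chromVAR deviation scores, which gave 34 of the 1346 motif entries, covering all 9 receptors. The cells were CD4+ FOXP3+ Tregs from the spleen of B6.Cg-Foxp3tm2Tch/J mice, genotype WT, which carry GFP behind Foxp3. Mice of one group received vehicle for 14 days, and those of the other received venetoclax, an inhibitor of the survival protein BCL-2, at 50 mg/kg over the same time. Each group had 2 samples, assayed by ATAC-seq, in which a transposase cuts and tags DNA that is open in the nucleus. The labels call them biological replicates but do not tie them to single animals, so a p-value here reflects the variation among these samples only. Neither the age of the mice nor any pooling is stated in the labels.

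These receptors are transcription factors switched by small lipophilic hormones: thyroid hormone, the vitamin A derivative retinoic acid, and active vitamin D. Most bind DNA as a pair with a retinoid X receptor, and without hormone many of them stay on DNA and repress nearby genes through corepressors. In T cells, retinoic acid is known for promoting peripheral Treg induction and gut homing, and vitamin D signalling for restraining inflammatory cytokine programmes. A motif score says nothing of the expression or the hormone of a receptor. It describes how accessible the peaks holding its sequence are.

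Receptors of this family read short hexamers, and the spacing of a repeated hexamer sets which pair binds best. The entries carry no letters, so 2 sites from the RefSeq promoter windows of GRCm38.p6 are shown to make plain what such an element looks like. Both are direct repeats with a spacer of 5 bases, the arrangement classically read by retinoic acid receptors paired with retinoid X receptors. The first lies upstream of the start site of Rarb, itself a receptor of this set and a classical target of retinoic acid, at chr14:16575513-16575529 on the minus strand, from 53 to 37 bases before the start. The second lies before the start of Cyp26a1, the enzyme that degrades retinoic acid, at chr19:37697776-37697792 on the minus strand. Capitals mark the hexamers and lower case the spacer.
Rarb: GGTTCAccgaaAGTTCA
Cyp26a1: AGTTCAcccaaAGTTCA

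The search took the hexamer AGGTCA, its variant with a leading G (GGGTCA), the form AGTTCA and the form GGTTCA, on both strands, repeated in the same direction in windows of 300 bases. A single hexamer was present in 43.7% of the 32851 promoter windows. A direct repeat with a spacer of 5 bases was present in 0.0974% of the windows, with 4 bases (the classical thyroid hormone element) in 0.0822%, with 3 bases (the classical vitamin D element) in 0.0396% and with 1 base (a retinoid X receptor element) in 0.222%. Of the 9 receptors, 8 had a promoter window in the table. These matches describe letters in promoters and were not linked to the scores.

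A chromVAR deviation score has no unit. It compares how open the peaks that hold a motif are in a sample with the average of the samples scored together, after correction by matched background peaks. The make-up of that reference average is not given in the sources used here. A score above or below 0 is therefore relative to that unstated set, and only the differences between the 4 samples can be read directly. No read counts were used here, and the sequencing depth behind a score is not known. Over all 1346 entries the SD of the scores in a sample ranged from 0.893 to 0.971, and the median from -0.28 in venetoclax replicate 2 to 0.18 in vehicle replicate 1. The median difference over all entries, venetoclax minus vehicle, was -0.29, so a difference near that value is where most motifs lie. Each of the 7 Thra entries repeated the 4 scores of a Thrb entry, which left 27 distinct sets of scores among the 34 entries. In motif names of this form, a final D marks a motif determined for the factor itself and a final I a motif inferred from a relative. All 14 thyroid hormone receptor entries ended in I, and the 20 entries of the other receptors ended in D. Entries are named below by symbol and by the line number in the table.

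**Figure D1:**
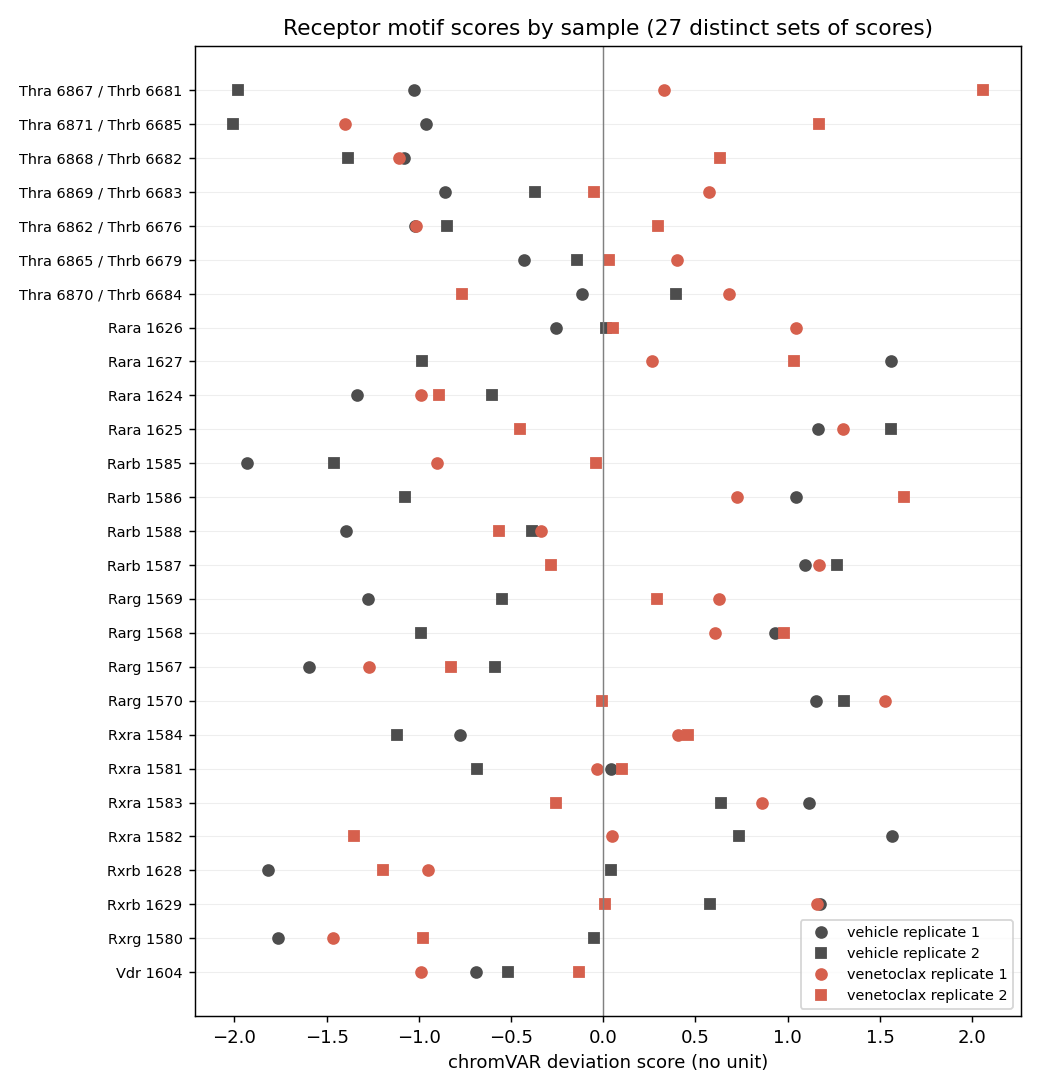
Each row is 1 of the 27 distinct sets of receptor scores, and the x axis is the chromVAR deviation score (no unit). Grey marks are the vehicle samples and red marks the venetoclax samples, with circles for replicate 1 and squares for replicate 2. Both red marks lie right of both grey marks in 7 rows and left of them in 1 row, Rxra 1582.

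No receptor entry passed the test. In limma, with Benjamini-Hochberg adjustment over all 1346 entries, 0 of 34 had an adjusted p under 0.05, against 0.0% of all entries. At an unadjusted p under 0.05, 2 of the 34 were higher with venetoclax, against 6.39% of all entries, and 1 was lower, against 11.9%. The entries that were higher are Thra 6867 and its copy Thrb 6681, and the entry that was lower is Rxra 1582. At that level the share of higher entries, 5.88%, was close to that in the whole table. Calls were made under 2 other settings. With a trended and robust variance, 2 of 34 entries (5.88%) passed an adjusted p of 0.05, against 5.5% of all entries. Without venetoclax replicate 1, 7 of 34 (20.6%) passed, against 25.0% of all entries.

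The thyroid hormone receptors, which mediate the action of thyroid hormone on metabolism and development, had differences above 0 in 6 of their 7 distinct sets, with a class median of 0.88 (0.54 without venetoclax replicate 2). The set of largest difference, Thra 6867, scored -1.03 and -1.98 in the vehicle samples and 0.33 and 2.06 in the venetoclax samples. Both vehicle samples were below 0 and both venetoclax samples above it. Its difference of 2.70 (SE 0.75, 95% interval 1.14 to 4.25, limma adjusted p = 0.15) ranked second of all 1346 entries, shared with Thrb. Without venetoclax replicate 2 the difference was 1.83, and without venetoclax replicate 1 it was 3.56.

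The other 6 thyroid hormone receptor sets split by how the venetoclax samples behaved. Thra 6871 scored -0.96 and -2.01 under vehicle and -1.40 and 1.17 under venetoclax. Thra 6868 scored -1.08 and -1.38 under vehicle and -1.11 and 0.64 under venetoclax. Thra 6862 scored -1.02 and -0.85 under vehicle and -1.02 and 0.30 under venetoclax. In these 3 sets venetoclax replicate 1 sat with or among the vehicle samples, and venetoclax replicate 2 alone was above 0. Their differences of 1.37 (SE 0.81), 1.00 (SE 0.73) and 0.58 (SE 0.71) came down to 0.086, 0.12 and -0.081 without that sample. Without venetoclax replicate 1, the differences of Thra 6871, Thra 6868 and Thra 6862 were 2.66, 1.87 and 1.23.

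Thra 6869 scored -0.86 and -0.37 under vehicle and 0.57 and -0.05 under venetoclax. Thra 6865 scored -0.43 and -0.14 under vehicle and 0.40 and 0.03 under venetoclax. In both sets the groups did not overlap, and here venetoclax replicate 1 was the higher of its group. The differences were 0.88 (SE 0.69) and 0.50 (SE 0.69), with limma adjusted p-values of 0.558 and 0.741, and they stayed above 0 with each sample left out in turn. Thra 6870 scored -0.11 and 0.40 under vehicle and 0.68 and -0.76 under venetoclax, so the venetoclax samples lay on either side of the vehicle samples. Its difference was -0.18 (SE 0.72). Over the 7 sets the gap between the 2 venetoclax samples had a median of 1.45, against 0.49 between the 2 vehicle samples. Over all 976 distinct sets of the table these gaps had medians of 0.81 and 0.54.

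The retinoic acid receptors had 4 entries each, and 9 of the 12 differences were above 0, with a class median of 0.40. Leaving out single samples moved that median between 0.24 and 0.42. None had an unadjusted p under 0.05, and the limma adjusted p ranged from 0.307 to 0.982. The 4 entries of a receptor did not move alike. Each receptor had 1 entry with a negative difference and 1 with groups that did not overlap.

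The entries whose groups did not overlap were Rara 1626, Rarb 1585 and Rarg 1569. Rarg 1569 scored -1.28 and -0.55 under vehicle and 0.63 and 0.29 under venetoclax. Its difference was 1.37 (SE 0.69, 95% interval -0.07 to 2.81, limma adjusted p = 0.307). Rarg is the retinoic acid receptor prominent in skin and cartilage. Rarb 1585 scored -1.93 and -1.46 under vehicle and -0.90 and -0.04 under venetoclax, a difference of 1.22 (SE 0.70). All 4 samples were below 0 for this entry. Rara 1626 scored -0.26 and 0.01 under vehicle and 1.04 and 0.05 under venetoclax, so that venetoclax replicate 2 was only just above vehicle replicate 2, and its difference was 0.67 (SE 0.70). Leaving out each sample in turn gave 1.01 to 1.74 for Rarg 1569, 0.79 to 1.65 for Rarb 1585 and 0.18 to 1.17 for Rara 1626.

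In one further trio the vehicle samples disagreed. Rara 1627 scored 1.56 and -0.98 under vehicle and 0.27 and 1.03 under venetoclax. Rarb 1586 scored 1.05 and -1.08 under vehicle and 0.72 and 1.63 under venetoclax. Rarg 1568 scored 0.93 and -0.99 under vehicle and 0.61 and 0.98 under venetoclax. In all 3 entries vehicle replicate 2 alone was below 0. Their differences of 0.36 (SE 0.80), 1.19 (SE 0.77) and 0.82 (SE 0.75) were smaller than the gaps between the vehicle samples, which were 2.54, 2.12 and 1.92. Without vehicle replicate 2 they were -0.91, 0.13 and -0.14.

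In another trio venetoclax replicate 2 stood below the other 3 samples. Rara 1625 scored 1.17 and 1.56 under vehicle and 1.30 and -0.45 under venetoclax. Rarb 1587 scored 1.10 and 1.27 under vehicle and 1.17 and -0.29 under venetoclax. Rarg 1570 scored 1.16 and 1.31 under vehicle and 1.53 and -0.01 under venetoclax. These are the negative differences of the retinoic acid receptors, at -0.94 (SE 0.74), -0.74 (SE 0.72) and -0.47 (SE 0.72). Without venetoclax replicate 2 they were -0.061, -0.014 and 0.29. Rara is the form expressed most widely across tissues, blood cells included.

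The remaining entries, Rara 1624, Rarb 1588 and Rarg 1567, were below 0 in all 4 samples. Rara 1624 scored -1.33 and -0.60 under vehicle and -0.99 and -0.89 under venetoclax, and Rarg 1567 scored -1.60 and -0.59 under vehicle and -1.27 and -0.83 under venetoclax. In both, the venetoclax samples lay between the vehicle samples, and the differences were 0.03 (SE 0.69) and 0.05 (SE 0.70). Their 95% intervals, -1.41 to 1.47 and -1.42 to 1.51, leave differences of either sign. Rarb 1588 scored -1.39 and -0.39 under vehicle and -0.34 and -0.57 under venetoclax, a difference of 0.44 (SE 0.70).

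The retinoid X receptors, the common partners of the other receptors on DNA, had differences on both sides of 0, with 2 of 7 above it and a class median of -0.29, close to that of all entries. The class median was -0.0050 without vehicle replicate 2 and -0.015 without venetoclax replicate 2. Rxra carried both extremes. Rxra 1582 scored 1.56 and 0.74 under vehicle and 0.05 and -1.35 under venetoclax, so both venetoclax samples were below both vehicle samples. Its difference was -1.80 (SE 0.73, 95% interval -3.31 to -0.29, limma adjusted p = 0.197), and leaving out each sample in turn gave -2.50 to -1.10. Without venetoclax replicate 1 its difference was -2.50.

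Rxra 1584 scored -0.77 and -1.12 under vehicle and 0.41 and 0.46 under venetoclax. Both groups were narrow, with a gap of 0.34 between the vehicle samples and 0.05 between the venetoclax samples. The difference was 1.38 (SE 0.68, 95% interval -0.05 to 2.80, limma adjusted p = 0.297), and it stayed between 1.21 and 1.55 with each sample left out. The intervals of Rxra 1582 and Rxra 1584 do not overlap, but the contrast between these entries was not itself tested. Rxra 1581 scored 0.04 and -0.68 under vehicle and -0.03 and 0.10 under venetoclax, a difference of 0.36 (SE 0.69). Rxra 1583 scored 1.11 and 0.64 under vehicle and 0.86 and -0.26 under venetoclax, a difference of -0.58 (SE 0.71) that was -0.015 without venetoclax replicate 2.

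Rxrb, a form expressed broadly, had differences close to the median of all entries. Rxrb 1629 scored 1.17 and 0.58 under vehicle and 1.16 and 0.01 under venetoclax, a difference of -0.29 (SE 0.71). Rxrb 1628 scored -1.82 and 0.04 under vehicle and -0.95 and -1.19 under venetoclax, a difference of -0.18 (SE 0.74). This set of scores was shared with Nr2f1 and Nr2f2, the COUP factors, which compete for related sites. Rxrg 1580, of the form found mainly in muscle and brain, scored -1.77 and -0.05 under vehicle and -1.46 and -0.98 under venetoclax, a difference of -0.31 (SE 0.74). In Rxrb 1628 and Rxrg 1580 the gap between the vehicle samples, 1.86 and 1.72, was larger than the difference between groups.

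The vitamin D receptor had 1 entry. Vdr 1604 scored -0.69 and -0.52 under vehicle and -0.99 and -0.13 under venetoclax, so the venetoclax samples enclosed the vehicle samples. The difference was 0.04 (SE 0.70, 95% interval -1.40 to 1.49). All 4 samples were below 0 for this motif.

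**Figure D2:**
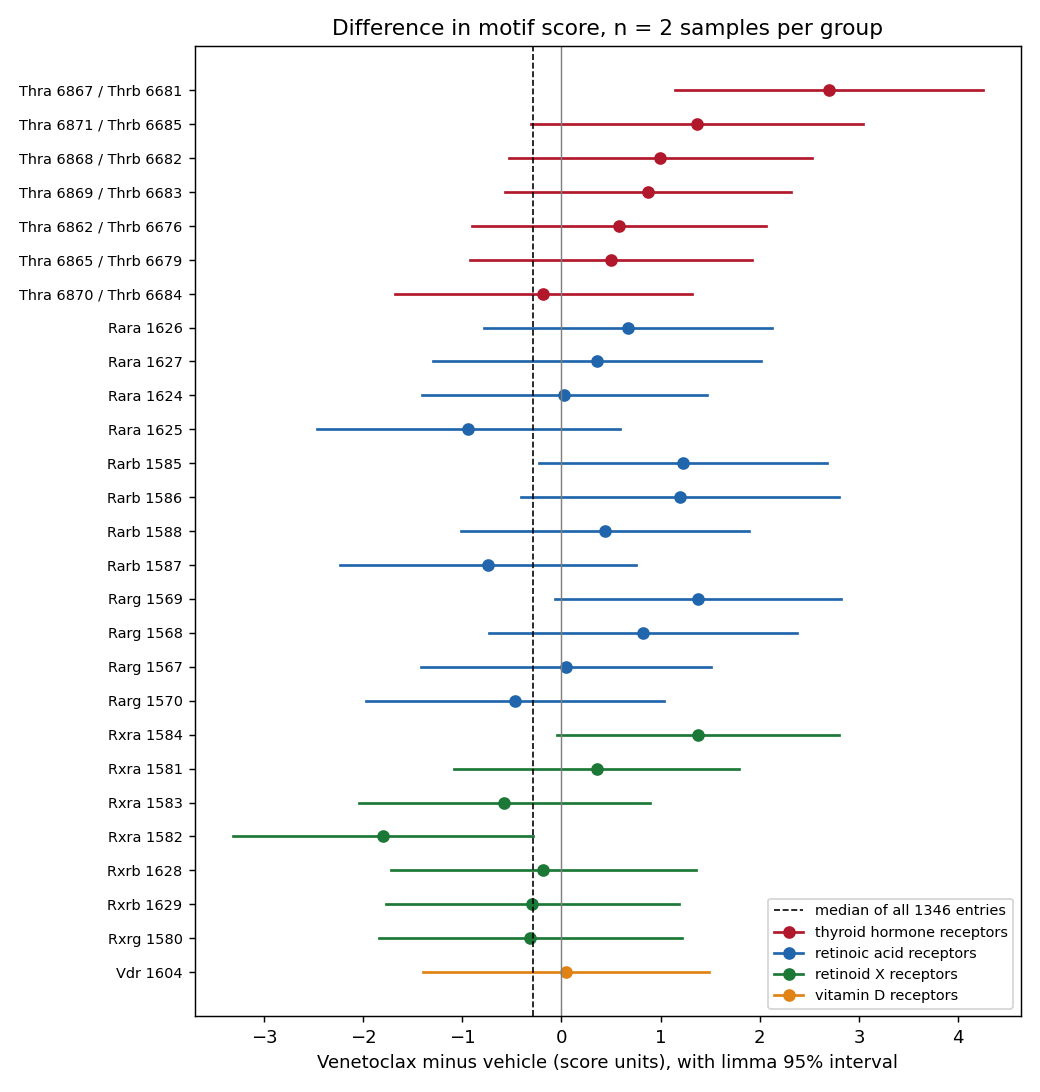
Points are the difference in score, venetoclax minus vehicle, for the 27 distinct sets, and lines are limma 95% intervals (n = 2 samples per group). The dashed line is the median of all 1346 entries, -0.29. Only the intervals of Thra 6867 and Rxra 1582 leave out 0, and neither set passed adjustment over all entries.

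Counted as a group, the receptor entries lay toward higher scores with venetoclax. The difference was above 0 for 24 of the 34 entries (70.6%), against 38.7% of all entries, and the median was 0.50 against -0.29. Counting each distinct set once, 18 of 27 were above 0 and the median was 0.36, against 383 of 976 and -0.23 over all distinct sets. Scaling moves these shares: with each sample centred on its median, the counts were 27 of 34 (79.4%) for the receptors and 49.6% over all entries. With division by the SD as well, they were 28 of 34 (82.4%) and 49.5%. Both venetoclax samples were above both vehicle samples for 10 of 34 entries, or 29.4%, against 17.2% of all entries. The reverse was found for 1 of 34, or 2.94%, against 31.1%. Over distinct sets, venetoclax was above vehicle in 7 of 27, against 176 of 976. Entries of relatives share sequence, so these counts describe the receptor entries and do not test them as a group.

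**Figure D3:**
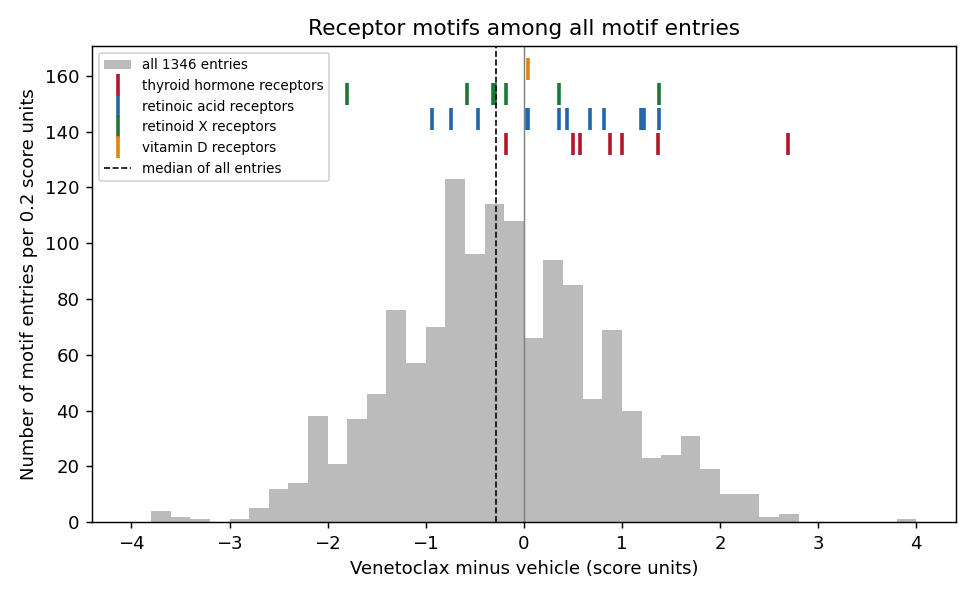
Grey bars count the 1346 motif entries by their difference in score, venetoclax minus vehicle, in steps of 0.2 score units. Coloured ticks above mark the 27 distinct receptor sets by class. Of the 7 thyroid hormone receptor ticks, 6 lie right of 0, while the retinoid X receptor ticks run from -1.80 to 1.38.

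Some entries of different receptors had nearly the same scores. Closeness was measured as the Euclidean distance over the 4 samples, in score units, and is a description. The nearest set belonged to another receptor for all 12 retinoic acid receptor entries and for 22 of the 27 sets, and most of the sets an entry can be nearest to are of other receptors. Rara 1625 and Rarb 1587 were 0.37 apart, Rara 1624 and Rarg 1567 0.39, and Rarb 1586 and Rarg 1568 0.68. Within a single retinoic acid receptor the distance between entries ranged from 1.43 to 4.58, with a median of 3.17 over 18 pairs. Between retinoic acid receptors it ranged from 0.37 to 4.87, with a median of 2.86 over 48 pairs, so the medians were close and the nearest pairs were of different receptors. Of the 3 entries whose groups did not overlap, none had another of the 3 as its nearest set. Rara 1626 and Rarg 1569 were nearest to thyroid hormone receptor sets, as was Rarb 1585, at 1.11 from Thra 6868.

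Close pairs were also found across receptors of other classes. Rxra 1583 and Rxrb 1629 were 0.41 apart and lay beside the trio in which venetoclax replicate 2 stood low. Rxrb 1628 and Rxrg 1580 were 0.57 apart and lay beside the entries that were below 0 in every sample. Rarg 1569 was nearest to Thra 6869, at 0.57, and Rara 1626 to Thra 6865, at 0.68. Of the 7 sets with venetoclax above vehicle, these 4 and Rxra 1584, 0.81 from Rarg 1569, were linked by near pairs. Thra 6865 and Thra 6869 were 0.53 apart. Sets linked in this way may not be separate observations, though not every pair among them was near. Vdr 1604 was nearest to Thra 6862, at 0.64. Thra 6867 was the most isolated of the 27, at 1.84 from its nearest neighbour, Rxra 1584.

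**Figure D4:**
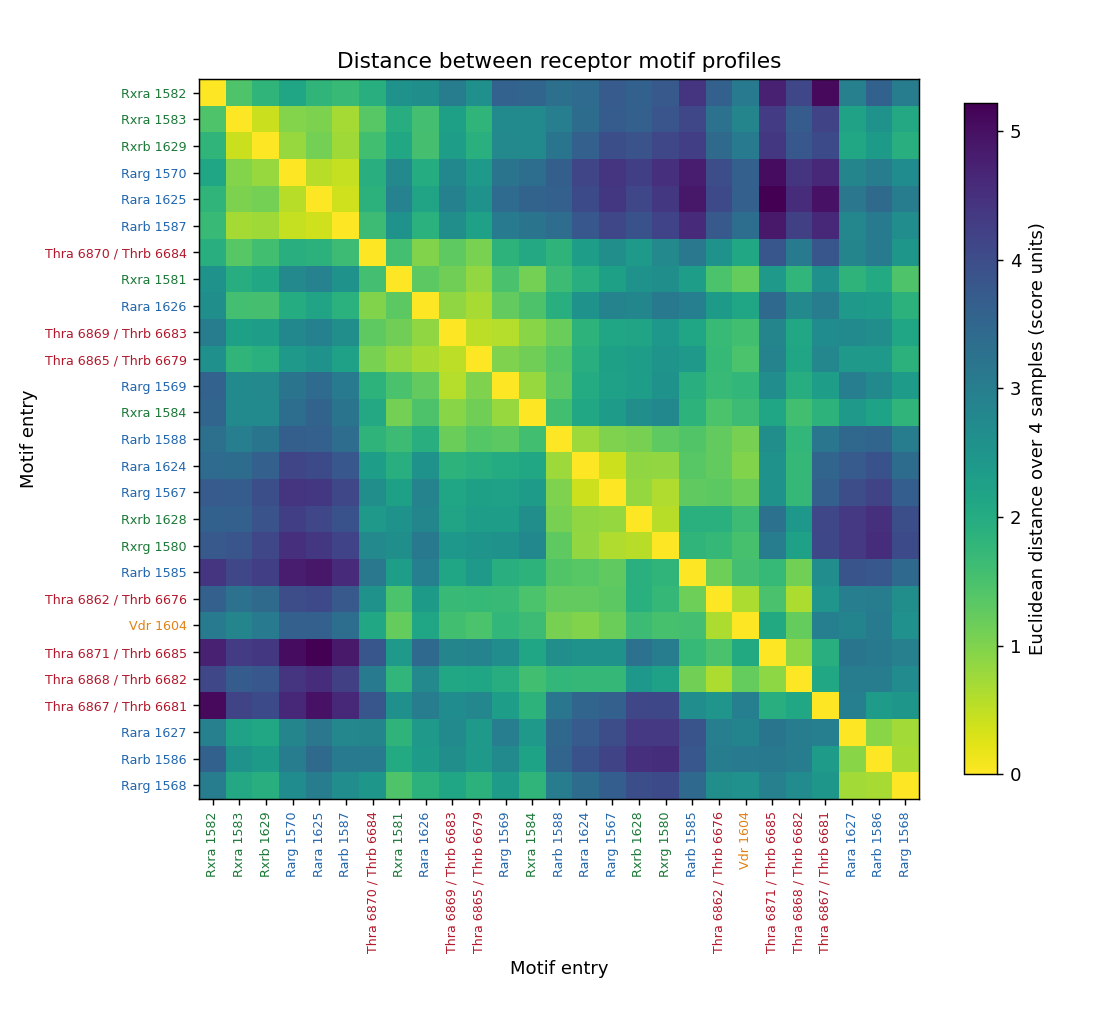
Each cell is the Euclidean distance over the 4 samples, in score units, between 2 of the 27 distinct receptor sets, with yellow for near and dark for far. Rows and columns have the same order, by average linkage, and label colours give the class (red thyroid hormone, blue retinoic acid, green retinoid X, orange vitamin D). Blocks of near sets mix Rara, Rarb and Rarg with retinoid X receptor entries, and distances reach 5.21.

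Outside the receptors, the entries nearest to the set of largest difference in each class were taken from the whole table. For Thra 6867 they were Dmrta1 (shared with Dmrta2) at a distance of 0.49, Zeb1 at 0.52 and Zfp128 at 0.56, with differences of 2.30, 2.28 and 2.26. For Rxra 1582 they were Hesx1 at 0.37, Sox2 at 0.45 and Elf5 at 0.64, with differences of -1.77, -1.94 and -1.40. For Rarg 1569 they were Pgr at 0.42, Dlx3 at 0.43 and Rest at 0.48, with differences of 1.25, 1.06 and 1.27. For Vdr 1604 they were Prrxl1, E2f5 and Hsfy2, at 0.31 to 0.34. Apart from Pgr, the progesterone receptor, these factors are not nuclear receptors.

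A list of other nuclear receptors, most of them known to pair with retinoid X receptors, had 16 entries, and 0 passed an adjusted p of 0.05. The difference was above 0 for 9 of the 16 (6 of 13 distinct sets), against 38.7% of all entries. Both venetoclax samples were above both vehicle samples for 8 of 16 (5 of 13 distinct sets), against 17.2% of all entries. The reverse was found for 3 of 16, against 31.1%. At an unadjusted limma p under 0.05, 5 of 16 (3 distinct sets) were higher with venetoclax, against 6.39% of all entries. The list holds the lipid-sensing Ppar receptors, the liver X receptors Nr1h2 and Nr1h3, the bile acid receptor Nr1h4 and its relative Nr1h5, Nr1i2, Nr1i3 and the Nr4a factors, of which Nr4a3 is not known to form this pair. Its median was 0.60, and -0.0062 when each of the 13 distinct sets was counted once. The highest was Nr1h4 6854, shared with Nr1h5, whose scores were -1.62 and -0.67 under vehicle and 0.43 and 1.37 under venetoclax, differing by 2.04 (SE 0.71, limma adjusted p = 0.174). These groups did not overlap. The lowest was Nr4a1 6706, whose scores were 0.60 and 0.72 under vehicle and -0.02 and -1.23 under venetoclax, which differed by -1.29 (SE 0.71, limma adjusted p = 0.357). Nr4a entries did not move together. The other Nr4a1 entries differed by -0.0062 and -0.16 and Nr4a2 by 0.95. Nr4a3 1617, added here after its values were seen, scored -0.82 and -1.69 under vehicle and 0.38 and 1.18 under venetoclax, a difference of 2.03 (SE 0.71, limma adjusted p = 0.174).

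Receptors that read related sites (Nr1d1, Nr1d2 and the Nr2c, Nr2e, Nr2f and Hnf4 factors) had 18 entries, with a median of -0.18 and 0 past the threshold. The difference was above 0 for 8 of 18 (44.4%), against 38.7% of all entries. Both venetoclax samples were above both vehicle samples for 3 of 18 and below them for 2, against 17.2% and 31.1% of all entries. Nr2c1 was highest at 0.75 (SE 0.72) and Nr2e1 lowest at -1.26 (SE 0.75).

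Motif scores cannot establish which cells were present. The motifs of the B cell factors Ebf1, Pax5 and Pou2f2 had 5 entries with differences from -0.44 to 0.45, and the groups overlapped in all 5. The motifs of the myeloid factors Cebpa, Cebpb and Spi1 had 4 entries, with differences from -2.15 for Spi1 to 1.53 for Cebpb. The groups did not overlap in 2 of the 4, those of Cebpb (scores shared with Cebpd) and of 1 Spi1 entry. The Spi1 entry, listed as Sfpi1 997, scored 1.01 and 0.71 under vehicle and -1.32 and -1.24 under venetoclax (limma adjusted p = 0.15), and the other, Sfpi1 1000, differed by -0.086. The T cell factors Foxp3, Gata3 and Tcf7 had 4 entries, with differences from -1.77 to 0.70. The groups did not overlap in 3, Foxp3 at -1.55 and Tcf7 at -0.54 and 0.70. The Foxp3 entry ended in I, and its scores were shared with Foxp4. Over all 1346 entries the groups overlapped in 696, so groups that do not overlap are common in the table. The part of these factors in the receptor scores was not tested.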

How the data were processed

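Per the file headers and its name, the deposited table gives the chromVAR deviation score of every motif in every sample, and the authors' group means, difference and rank. The submitters' processing notes name Bowtie2, Picard, MACS2 and mm10. Read shifting, peak set, motif collection and tool versions: not given in the sources used here, nor whether the score is a z-score. Of 12 sample columns, 8 match no sample in the labels and were not used. The authors' mean difference was recovered from the columns to within 1e-09.

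Scores were compared as deposited with limma 3.58.1 in R 4.3.3 (lmFit, eBayes), two-sided, with Benjamini-Hochberg adjustment over 1346 entries and a threshold of 0.05. Sharing the spread over motif entries gave 21.0 degrees of freedom, 2 of them from an entry's own samples and 19.0 from the pooled spread. The limma SE and p-value of an entry therefore rest mostly on that pooled spread. The fit was tested on simulated data. The receptors, the lists and the naming rule were chosen with earlier results of these data known, and the trios of similar entries after their scores were seen. Every receptor entry was named, with the 3 nearest other symbols per class and the extremes of each list. Entries of 1 receptor subfamily on the list of related readers are not reported here. Spi1 was matched by an older symbol. Alternatives were the replicate block, each sample left out, centring, scaling, quantile normalization, distinct sets of scores and other variance models.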

Additional observations from a re-analysis of the deposited data

How the results depend on the processing

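The count of 0 calls at an adjusted p of 0.05 held in limma under every alternative except 2. With a trended and robust variance it was 74 over all entries and 2 for the receptors (Thra 6867 and its Thrb copy). Leaving out each sample gave 0 to 337 over all entries and 0 to 7 for the receptors, with the calls made only without venetoclax replicate 1, where the remaining venetoclax sample is assumed to vary like the vehicle samples. At an unadjusted p the main counts were 246 over all entries and 3 for the receptors. Leaving out each sample gave 47 to 506 and 3 to 11, and an ordinary linear model gave 92 and 1. The 1 receptor entry of the ordinary linear model was Rxra 1584, which was not among the 3 of the main fit. Those 3, Thra 6867, its Thrb copy and Rxra 1582, did not reach that level when the spread was not shared over entries. After centring the limma counts were 215 of all 1346 entries and 6 of the 34 receptor entries, and after division by the SD 205 and 5. Quantile normalization gave 203 and 5, and the trended variance 278 and 5.

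The replicate numbers are not said to mark a shared animal or day, and same-numbered deviations correlated at -0.27 across motifs. With the replicate block, 100 of all 1346 entries and 3 of the 34 receptor entries had an unadjusted limma p under 0.05. With the crossed block, chosen after seeing the data, these counts were 258 and 5. Neither block called an entry after adjustment.

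Of the 27 distinct receptor differences, 14 kept their sign with each sample left out, though Rara 1625, Rarb 1587 and Rxra 1583 were -0.061, -0.014 and -0.015 and Thra 6871 was 0.086 without venetoclax replicate 2. The other 13 ranged across 0: Thra 6862 from -0.081 to 1.23, Thra 6870 from -0.91 to 0.54, Rara 1627 from -0.91 to 1.63, Rara 1624 from -0.34 to 0.39, Rarb 1588 from -0.065 to 0.94, Rarg 1568 from -0.14 to 1.78, Rarg 1567 from -0.46 to 0.55, Rarg 1570 from -1.24 to 0.29, Rxra 1581 from -0.0050 to 0.72, Rxrb 1628 from -1.11 to 0.75, Rxrb 1629 from -0.87 to 0.28, Rxrg 1580 from -1.17 to 0.54 and Vdr 1604 from -0.38 to 0.47. Centring, division by the SD and quantile normalization gave Thra 6870 values of 0.079, 0.087 and 0.079. Rxrb 1628 was 0.078 after centring and 0.012 with division by the SD, and Rxrb 1629 was 0.010 with division by the SD. Centring by construction adds the same amount to every difference.

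The same 3 settings gave class medians of 1.14, 1.21 and 1.09 for the thyroid hormone receptors, 0.66, 0.71 and 0.59 for the retinoic acid receptors, -0.032, 0.010 and -0.072 for the retinoid X receptors and 0.86, 0.94 and 0.84 for the partner receptors. Leaving out each sample gave 0.54 to 1.23, 0.24 to 0.42, -0.34 to -0.0050 and 0.39 to 0.79, and -0.36 to 0.24 for the related readers. With 1 value per symbol the thyroid median was 0.98. With each distinct set counted once the partner median was -0.0062. Direct and inferred entries could not be compared within a class, since each class held 1 kind. Depth is unknown, so its part in these values was not tested.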
